A study of Rattus norvegicus with 4 samples.

Results

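Ion channel subunits are the proteins that form, or regulate, the ion-selective pores behind the electrical activity of the heart cell. They were followed here through every probe set whose only gene symbol in the platform annotation began with Kcn, Cacn, Hcn, Clcn, Trpc, Trpm or Trpv, or with Scn and a digit. This rule found 188 probe sets for 135 genes, among 15866 probe sets for 10411 named genes on the array. The expression of these genes was compared in muscle cells of the heart ventricle, isolated from newborn rats and kept in culture. The fibronectin group (2 arrays) came from dishes coated with fibronectin, a matrix protein that binds integrins, and the control group (2 arrays) from uncoated dishes. Both groups had 24 h in 10% serum followed by 48 h in serum-free medium. Whether both arrays of a group hold RNA of different cultures is not stated in the labels. The p-values therefore measure only the spread between these arrays, which may be technical. No strain, age in days or genotype is given in the labels.

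As background, the cardiac action potential begins when voltage-gated sodium channels open, is held at its plateau by calcium entering through L-type channels, and ends as several potassium currents return the cell to rest. Inward rectifier channels of the Kcnj family set the resting potential, Hcn channels carry a pacemaker current, Clcn proteins move chloride across the surface or across vesicle membranes, and Trp channels pass cations in response to lipids, calcium or stretch. Hypertrophied heart muscle is known for a longer action potential and for lower potassium currents. In an RNA extract of a whole dish, fewer cells of a type and less RNA per cell cannot be told apart.

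The coating could be compared for only a minority of these genes, because most channel probe sets were dim. Deposited intensities were quantile normalized, raised to a floor of 23.4 (4.55 on the log2 scale), and tested where the mean log2 signal lay above the 40th percentile. Of the 188 probe sets 50 passed, for 43 genes, and 138 were dim, or 73.4% against 40% of all probe sets. No channel probe set passed limma's test at a Benjamini-Hochberg adjusted p under 0.05 (0 of 50), where 0% of all 9519 tested probe sets did. At an unadjusted p under 0.05 there were also 0 of 50, against 6.47% of all tested probe sets. The lowest unadjusted p among the channels was 0.0900, and the lowest limma Benjamini-Hochberg adjusted p was 0.762. The standard errors of the 50 tested channel probe sets had a median of 0.57 on the log2 scale against 0.45 over all tested probe sets, and no tested channel differed by more than 2 standard errors.

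The arrays set the limits of the comparison. Their deposited intensities moved in steps of 0.223 on fibronectin replicate 1, 1.95 on fibronectin replicate 2, 0.1 on control replicate 1 and 0.233 on control replicate 2, so that different dim probe sets can share the same value on fibronectin replicate 2. That array was the highest or the lowest of the 4 for 37 of the 50 channel probe sets. Over these 50, log2 signals correlated with r = 0.305 between the fibronectin arrays and 0.678 between the controls, and across all 9519 tested probe sets with 0.792 and 0.910. These correlations run across probe sets on shared arrays and describe the arrays only. The 12 myocyte markers on the array of 13 listed, among them Tnnt2, Myh6 and Pln, all passed the filter, with summed linear signals of 80907 and 78862 on fibronectin and 79011 and 70261 on uncoated dishes. As a measure of RNA quality, signal at the 3' end of a transcript was divided by that at its 5' end. For Gapdh the ratio was 6.02 and 3.52 on fibronectin and 1.64 and 1.15 on uncoated dishes. For beta-actin it was 13.0 and 6.29 on fibronectin and 1.46 and 1.40 on uncoated dishes. The part of this difference between the groups in the results was not tested.

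The share of each class that could be tested varied. Of the potassium channel probe sets 85 of 108 were dim, of the calcium channel ones 26 of 35, of the sodium channel ones 8 of 12, and of the Trp ones 15 of 21. Of the chloride channel probe sets 3 of 9 were dim, and of the Hcn ones 1 of 3. All 7 probe sets of the calcium- and sodium-activated potassium channels (the genes Kcnma1, Kcnn1, Kcnn3, Kcnn4 and Kcnt1) were dim.

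**Figure D1:**
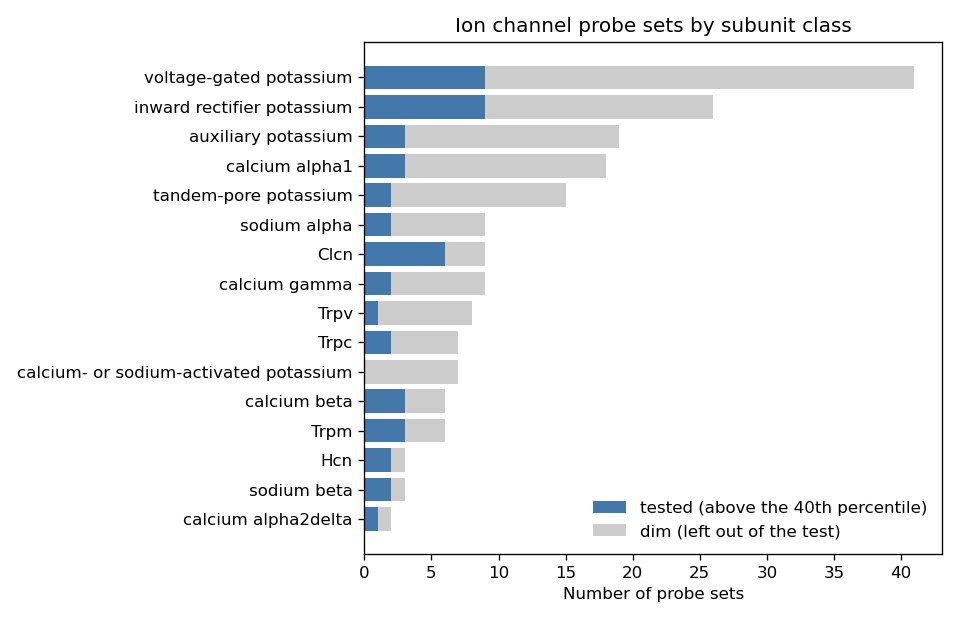
Number of ion channel probe sets in each subunit class (horizontal axis), split into those tested, in blue, and those left out as dim, in grey. Voltage-gated potassium channels had 9 tested of 41 probe sets, inward rectifiers 9 of 26, and Clcn proteins 6 of 9.

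Several channels that define the rat ventricular action potential fell below the filter. Among the cardiac channel genes listed and measured here, 15 had a tested probe set and 9 had dim probe sets only. The dim genes were Kcnd2, Kcnd3 and Kcnip2 (the transient outward potassium channel and its accessory protein), Kcna5, Kcne1, Kcnj2 (the main inward rectifier of ventricular muscle), Kcnj8, Hcn4 and Cacna1h. Their 13 probe sets gave 52 values, of which 20 lay at the floor, and the highest was 6.96. Kcnj2 read 4.86 and 4.55 on fibronectin and 5.52 and 5.02 on uncoated dishes. Hcn4, the pacemaker channel of the sinus node, was at the floor on all 4 arrays, so it has no measured difference. A dim probe set does not show that the transcript is absent, since probe sets differ in how well they bind. The probe sets just above the filter were those of Cacna1a, Clcn4 and Kcnab1, with mean log2 signals of 6.06 to 6.08, and those just below it were of Cacna1b, Kcnq3 and Cacna1e, with 5.96 to 5.99.

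Among the tested channels the differences were of either sign and mostly small. The difference, fibronectin minus control, was positive for 20 probe sets and negative for 30, with a median of -0.06 on the log2 scale against -0.02 for all tested probe sets. It was smaller than 1 in size for 94.0% of the channel probe sets and for 87.9% of all tested ones. Both fibronectin arrays lay above both controls for 4 of the 50, or 8%, against 19.3% of all tested probe sets, and below both controls for 9, or 18.0%, against 19%. A difference of at least 1 without overlap, which is a 2-fold difference, was found in the lower direction for 2 probe sets, 4% against 5.79% of all, and in the higher direction for 0, against 3.42% of all. With counts of only 2 and 0, these shares were not read as different from those of the whole array. The fibronectin arrays lay on opposite sides of the control mean for 26 of the 50 probe sets. The filter used the mean of all 4 arrays, so a probe set below the cut in 1 group could pass through the other.

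**Figure D2:**
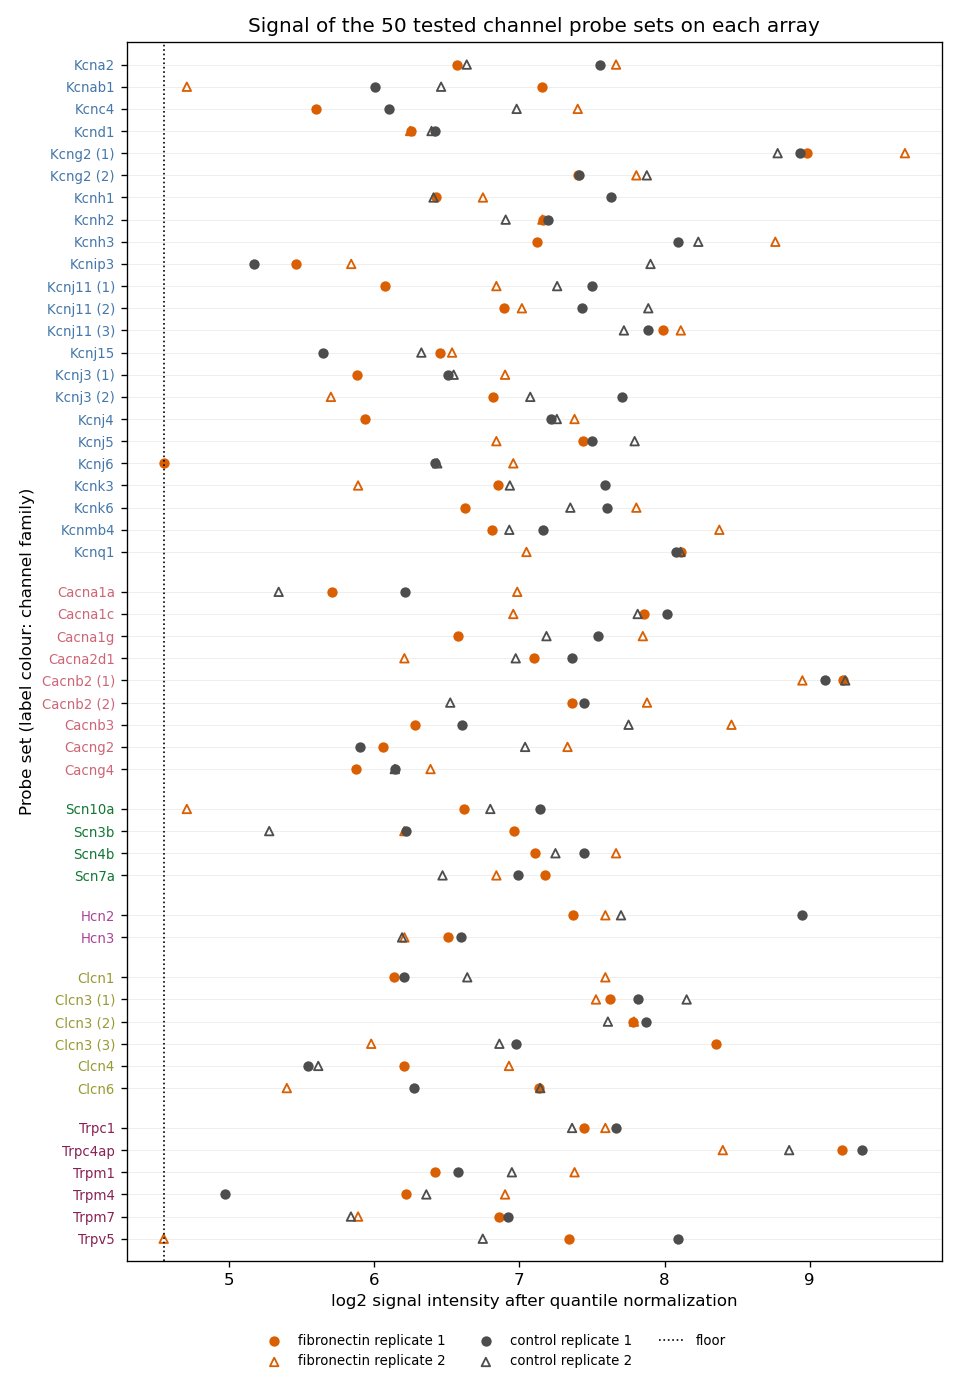
Normalized log2 signal intensity (horizontal axis) of the 50 tested channel probe sets (1 row each, numbered where a gene has several, label colour by family) on the 2 fibronectin arrays, in orange, and the 2 control arrays, in grey. Circles are replicate 1, triangles replicate 2, and the dotted line is the floor at 4.55. The orange triangle of fibronectin replicate 2 is at one end of the row for 37 probe sets.

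The 9 tested probe sets of inward rectifier potassium channels, for 6 genes, had a median log2 difference of -0.58, with 7 negative and 2 positive. Relative to each probe set's control mean, the median of fibronectin replicate 1 was -0.65 and that of replicate 2 was 0.14, so the fibronectin arrays lay on either side of the controls. Without fibronectin replicate 1 the median difference of these probe sets was 0.14, of the opposite sign. Each gene therefore needs its own values.

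Kcnj3 and Kcnj5 encode the subunits that combine into the acetylcholine-activated potassium channel, which slows the heart under vagal control. One Kcnj3 probe set, 1388292_at, had the largest difference among the tested inward rectifier probe sets. It measured 6.82 and 5.70 on fibronectin, against 7.71 and 7.08 on uncoated dishes. Both fibronectin values lay below both controls, with a log2 difference of -1.13 (SE 0.58) and limma's Benjamini-Hochberg adjusted p = 0.762. Leaving out 1 array gave -1.69 without fibronectin replicate 1 and -0.57 without fibronectin replicate 2, and on the deposited scale its groups overlapped. The other tested Kcnj3 probe set, 1369740_at, read 5.88 and 6.90 on fibronectin and 6.51 and 6.55 on uncoated dishes, so the fibronectin values surrounded the controls. A dim Kcnj3 probe set, 1369741_at, read 6.10 and 5.80 on fibronectin and 6.14 and 4.59 on uncoated dishes, with overlapping groups. Kcnj5 measured 7.44 and 6.84 on fibronectin, against 7.50 and 7.79 on uncoated dishes. These groups were narrowly free of overlap, the difference was -0.51 (SE 0.43), and the adjusted p of limma's Benjamini-Hochberg procedure was 0.799.

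Kcnj11 encodes the pore of the ATP-sensitive potassium channel, which links the energy state of the cell to its electrical activity. Its 3 tested probe sets were each free of overlap between the groups and did not share a direction. Probe set 1369782_a_at read 6.08 and 6.84 on fibronectin, against 7.50 and 7.26 on uncoated dishes, a difference of -0.92 (SE 0.51). Probe set 1387698_at read 6.90 and 7.02 on fibronectin, against 7.43 and 7.89 on uncoated dishes, a difference of -0.70 (SE 0.43). In both, the fibronectin arrays were the lower ones, also on the deposited scale. Probe set 1391007_s_at read 7.99 and 8.11 on fibronectin, against 7.89 and 7.72 on uncoated dishes, a difference of 0.25 (SE 0.36). In the maker's naming an s_at probe set shares its probes with more than 1 transcript, and on the deposited scale this one overlapped between the groups. The lowest of the 3 adjusted p in limma's Benjamini-Hochberg procedure was 0.771.

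The remaining inward rectifiers were Kcnj4, Kcnj6 and Kcnj15. Kcnj4, a relative of Kcnj2, differed by -0.58 (SE 0.59), with fibronectin values of 5.93 and 7.38 around control values of 7.22 and 7.26. Kcnj6, a subunit of the same acetylcholine-activated family best known from neurons, read 4.55 (the floor) and 6.96 on fibronectin and 6.42 and 6.43 on uncoated dishes. For both genes the sign turned without fibronectin replicate 1, to 0.14 and 0.53. Kcnj15, an inward rectifier known from kidney and other epithelia, had 1 tested probe set, which was higher on both fibronectin arrays. It read 6.46 and 6.54 there and 5.65 and 6.33 on uncoated dishes, a difference of 0.51 (SE 0.64). The control mean of Kcnj15, 5.99, was just below the filter's cut, so it passed through its fibronectin values.

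**Figure D3:**
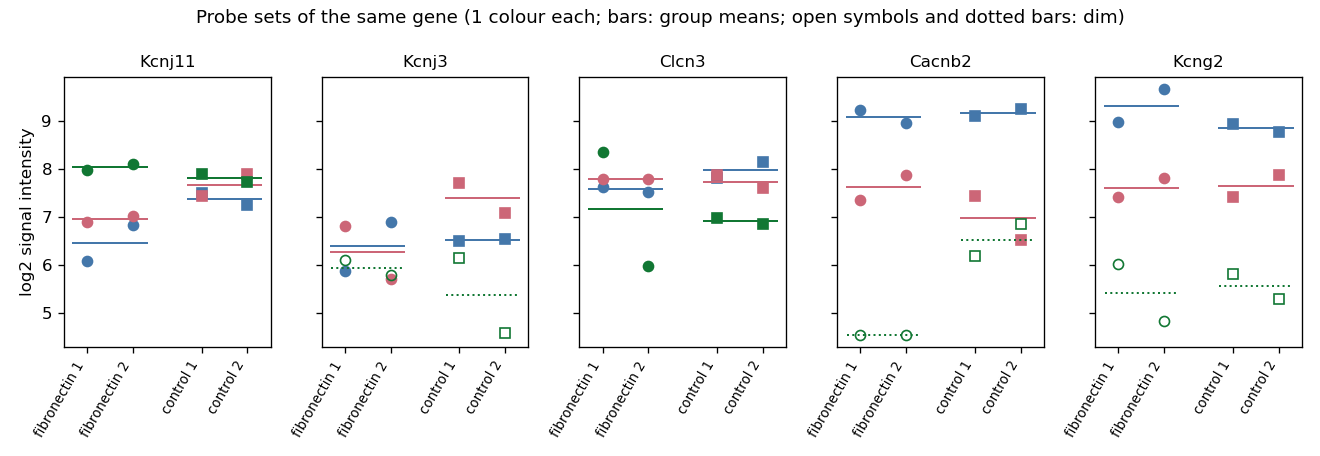
Log2 signal intensity of every probe set of 5 channel genes with several tested ones, by array, with the fibronectin arrays (circles) left of the controls (squares). Each colour is 1 probe set, bars are group means, and open symbols with dotted bars mark dim probe sets. Kcnj11 has 2 probe sets lower and 1 higher on fibronectin, and the dim Cacnb2 probe set is at the floor on both fibronectin arrays.

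The 9 tested probe sets of voltage-gated potassium channels, for 8 genes, had a median log2 difference of -0.04, with 3 positive and 6 negative. Kcnq1, the pore of the slow delayed rectifier, measured 8.11 and 7.05 on fibronectin and 8.08 and 8.11 on uncoated dishes. Fibronectin replicate 1 was level with the controls and only replicate 2 was below them, so the difference of -0.51 (SE 0.45) became 0.02 without fibronectin replicate 2. Kcnh2, the pore of the rapid delayed rectifier that many drugs block, measured 7.16 and 7.16 on fibronectin and 7.20 and 6.91 on uncoated dishes, a difference of 0.11 (SE 0.44). The fibronectin values lay between the controls, so the groups overlapped.

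Kcng2, a modifier subunit that has no current of its own and alters partner channels, had 2 tested probe sets. Probe set 1374814_at read 8.98 and 9.66 on fibronectin, against 8.94 and 8.78 on uncoated dishes. Both fibronectin values were higher, replicate 1 narrowly so, with a difference of 0.46 (SE 0.35) and limma's Benjamini-Hochberg adjusted p = 0.785, or 0.12 without fibronectin replicate 2. Probe set 1390473_at read 7.41 and 7.81 on fibronectin and 7.41 and 7.88 on uncoated dishes, with overlapping groups and a difference of -0.04 (SE 0.41). Kcnd1, a relative of the transient outward channel genes, was steady within groups, at 6.25 and 6.25 on fibronectin and 6.42 and 6.40 on uncoated dishes, a difference of -0.16 (SE 0.60). The fibronectin values were the lower ones after normalization and overlapped with the controls on the deposited scale. The other voltage-gated members, Kcna2, Kcnc4, Kcnh1 and Kcnh3, are best known from neurons and differed by 0.02, -0.04, -0.43 and -0.22, each with overlapping groups and with a sign that turned when 1 array was left out.

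Both tested tandem-pore channels, which pass background potassium current, had negative differences. Kcnk3, an acid-sensitive channel of cardiac myocytes, measured 6.85 and 5.89 on fibronectin, against 7.59 and 6.93 on uncoated dishes. The fibronectin values were the lower ones, with a difference of -0.89 (SE 0.57) and limma's Benjamini-Hochberg adjusted p = 0.772, and it was -0.41 without fibronectin replicate 2. On the deposited scale its groups overlapped. The Kcnk3 probe sets 1375807_at and 1398313_a_at were dim, with overlapping groups and positive differences of 0.36 and 0.60. Kcnk6 read 6.63 and 7.81 on fibronectin and 7.61 and 7.35 on uncoated dishes, a difference of -0.26 (SE 0.51).

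Of 19 probe sets for auxiliary potassium channel subunits 3 were tested, and all had overlapping groups. Kcnab1, a cytoplasmic beta subunit of Kcna channels, differed by -0.30 (SE 0.92), the calcium-binding Kcnip3 by -0.88 (SE 0.97), and Kcnmb4, a beta subunit of the large-conductance channel, by 0.54 (SE 0.58). Kcnip3 read 5.46 and 5.84 on fibronectin and 5.17 and 7.90 on uncoated dishes. Its difference rested on control replicate 2 and was 0.48 without it. Kcnmb1, a beta subunit known from smooth muscle, was dim.

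**Figure D4:**
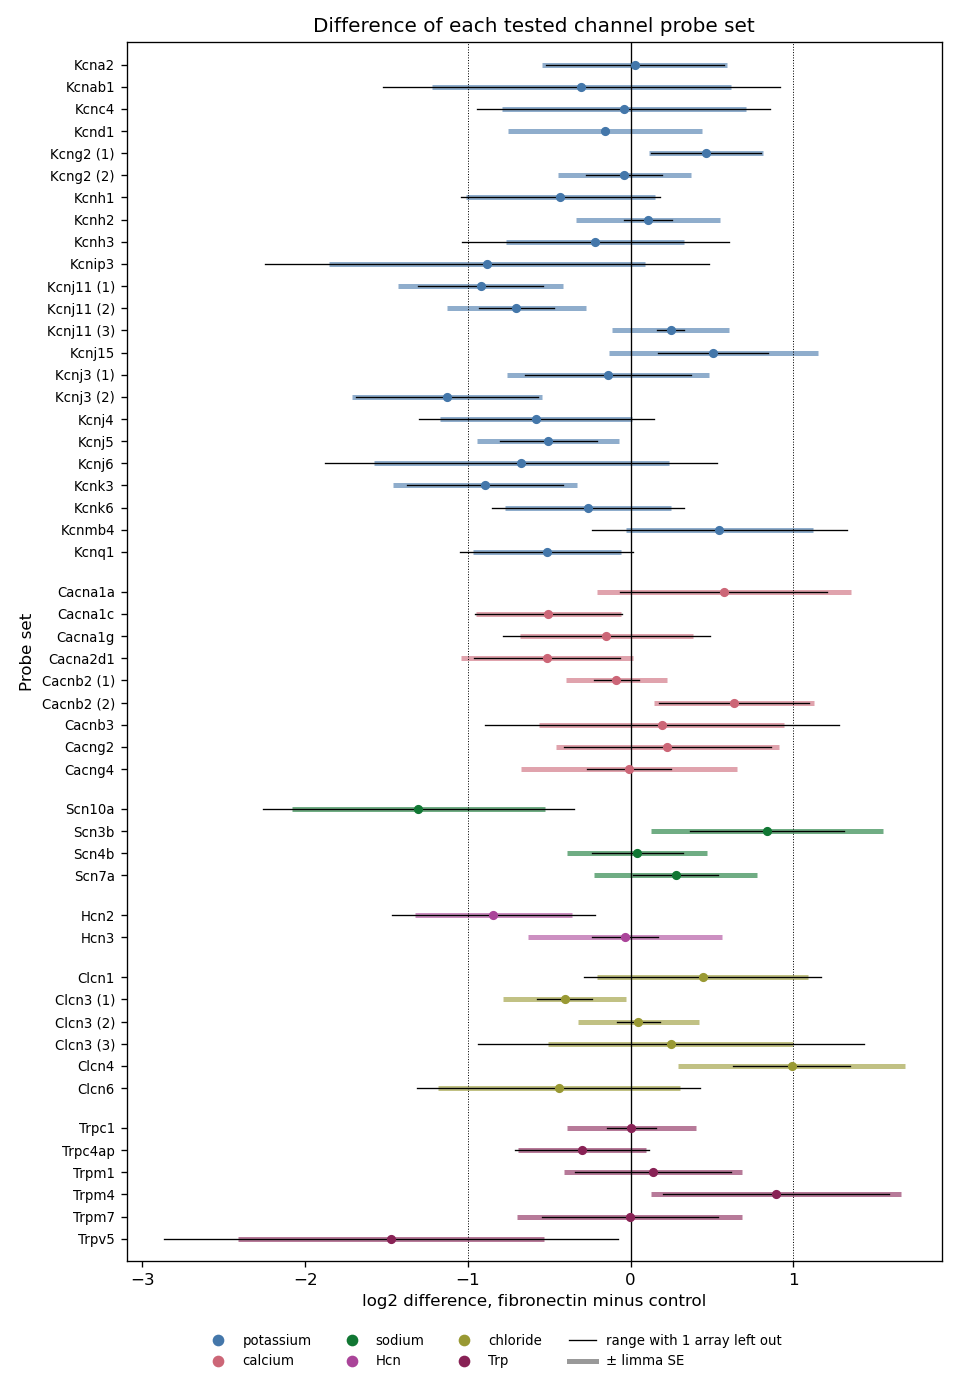
Log2 difference, fibronectin minus control (horizontal axis), of each tested channel probe set, coloured by family. Thick bars are limma's standard error in each direction, thin black lines the range with 1 array left out in turn, and dotted lines a difference of 1 in either direction. The ranges of 30 of the 50 probe sets cross 0.

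The 9 tested calcium channel probe sets, for 8 genes, had a median difference of -0.01 and overlapping groups in every case. Cacna1c, the pore of the L-type channel that triggers contraction, measured 7.86 and 6.96 on fibronectin and 8.02 and 7.82 on uncoated dishes. Fibronectin replicate 1 lay between the controls and replicate 2 below them, so the difference of -0.51 (SE 0.44) was -0.05 without fibronectin replicate 2. Cacna2d1, the alpha2delta subunit that helps carry the L-type channel to the surface, followed the same order of arrays. It read 7.10 and 6.21 on fibronectin and 7.36 and 6.98 on uncoated dishes, a difference of -0.51 (SE 0.53) that was -0.06 without fibronectin replicate 2. Cacna1g, a T-type pore of the fetal and newborn heart, read 6.58 and 7.85 on fibronectin and 7.54 and 7.19 on uncoated dishes, a difference of -0.15 (SE 0.53).

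Cacnb2 encodes the main beta subunit of the cardiac L-type channel. Its probe set 1370178_at, with the smallest standard error of the tested channels, measured 9.23 and 8.95 on fibronectin and 9.11 and 9.24 on uncoated dishes. The 4 values lay close together with overlapping groups, and the difference was -0.09 (SE 0.31), with limma's Benjamini-Hochberg adjusted p = 0.956. A second probe set, 1374717_at, read 7.36 and 7.88 on fibronectin and 7.45 and 6.52 on uncoated dishes, a difference of 0.64 (SE 0.49). Control replicate 2 was the lowest of its 4 values, and without it the difference was 0.18. The remaining one, 1388023_a_at, was dim, at the floor on both fibronectin arrays and at 6.19 and 6.86 on uncoated dishes, which is at least 3.93-fold lower. This value was picked out after the signals were seen, and the probe sets of this gene did not share a direction.

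The other calcium channel members were Cacna1a, a pore best known from nerve terminals, the beta subunit Cacnb3, and the gamma subunits Cacng2 and Cacng4, which in the brain also assist glutamate receptors. Their differences were 0.57 (SE 0.78), 0.19 (SE 0.75), 0.23 (SE 0.69) and -0.01 (SE 0.66) in that order. Fibronectin replicate 2 was the highest of the 4 arrays for each of these genes, and without it each difference was negative, from -0.90 for Cacnb3 to -0.07 for Cacna1a. Relative to the control means, the median of the 9 tested calcium channel probe sets was -0.07 on fibronectin replicate 1 and 0.49 on fibronectin replicate 2.

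Sodium channels were represented by 2 pore subunits and 2 beta subunits. Scn10a, a pore subunit known from sensory neurons and from the heart's own nerves, had the other large difference without overlap. It measured 6.62 and 4.71 on fibronectin, against 7.14 and 6.80 on uncoated dishes. Both fibronectin values were below both controls, but fibronectin replicate 2, close to the floor of 4.55, carried most of the difference of -1.31 (SE 0.78). The fibronectin mean of Scn10a, 5.66, was below the filter's cut, so it passed through its control values. Its difference is therefore no support for a change. Limma's Benjamini-Hochberg adjusted p was 0.771, the difference was -0.35 without fibronectin replicate 2, and on the deposited scale, where the values were 105.4 and 19.5 on fibronectin and 154.3 and 98.4 on uncoated dishes, the groups overlapped. Scn4b, a beta subunit that modifies sodium current, measured 7.11 and 7.67 on fibronectin and 7.44 and 7.25 on uncoated dishes. Its groups overlapped and the difference was 0.04 (SE 0.43). Scn3b, another beta subunit, differed by 0.84 (SE 0.71), and Scn7a, a sodium-sensing relative of the pore subunits, by 0.28 (SE 0.50). The fibronectin values of Scn3b were 6.96 and 6.21, against 6.22 and 5.28 on uncoated dishes, an overlap of replicate 2 on fibronectin with control replicate 1. The control mean of Scn3b, 5.75, was below the filter's cut, so it passed through its fibronectin values.

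Hcn2 and Hcn3 form channels that open on hyperpolarization, and Hcn2 is the ventricular member. Hcn2 measured 7.37 and 7.59 on fibronectin, against 8.95 and 7.70 on uncoated dishes. Both fibronectin values were the lower ones, with a difference of -0.84 (SE 0.48) and limma's Benjamini-Hochberg adjusted p = 0.771. Control replicate 1 carried most of it, since the difference was -0.22 without that array, and on the deposited scale the groups overlapped. Hcn3 read 6.51 and 6.21 on fibronectin and 6.60 and 6.19 on uncoated dishes, a difference of -0.04 (SE 0.60).

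The chloride channel genes were measured by 6 probe sets, with a median difference of 0.15, and Clcn3 alone by 3 of them. Clcn3 encodes a chloride and proton exchanger of endosomes. Its probe set 1380547_at read 7.63 and 7.53 on fibronectin, against 7.82 and 8.15 on uncoated dishes, lower on both fibronectin arrays, with a difference of -0.41 (SE 0.38). Its probe set 1389652_at read 7.79 and 7.79 on fibronectin and 7.87 and 7.61 on uncoated dishes, a difference of 0.05 (SE 0.37). The third, 1392453_at, had fibronectin values far apart, 8.35 and 5.98, on either side of 6.98 and 6.86 on uncoated dishes. Clcn4, a close relative, measured 6.21 and 6.93 on fibronectin, against 5.54 and 5.62 on uncoated dishes. Both fibronectin values were higher, also on the deposited scale, with a difference of 0.99 (SE 0.70), limma's Benjamini-Hochberg adjusted p = 0.778, and a range of 0.63 to 1.35 with 1 array left out. This probe set lay just above the filter and passed it through its fibronectin values, since both control values were below the cut. Its difference and range are therefore no support for a change. Clcn1, the chloride channel of skeletal muscle, differed by 0.44 (SE 0.65), and Clcn6, a late endosomal exchanger, by -0.44 (SE 0.74), both with overlapping groups.

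The 6 tested Trp probe sets, 1 for each gene, had a median difference of 0.00 and overlapping groups throughout. Trpc1, linked to store-operated and stretch-sensitive cation entry, measured 7.45 and 7.59 on fibronectin and 7.66 and 7.36 on uncoated dishes, a difference of 0.01 (SE 0.40). Trpc4ap, which the rule takes by its symbol, encodes a protein associated with a channel and not a channel. It read 9.22 and 8.40 on fibronectin and 9.36 and 8.86 on uncoated dishes, a difference of -0.30 (SE 0.39). Trpm7, a channel fused to a kinase that passes magnesium, read 6.86 and 5.89 on fibronectin and 6.92 and 5.84 on uncoated dishes in probe set 1398355_at. Those values followed the replicate number rather than the coating, with a difference of -0.01 (SE 0.69).

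Trpm4, a cation channel opened by calcium, measured 6.22 and 6.90 on fibronectin and 4.97 and 6.36 on uncoated dishes, a difference of 0.89 (SE 0.77). Control replicate 2 lay above fibronectin replicate 1, so the groups overlapped, and without control replicate 1 the difference was 0.20. The control mean of Trpm4, 5.67, was below the filter's cut, so it passed through its fibronectin values. Trpm1 differed by 0.14 (SE 0.55). Trpv5, a calcium channel of kidney epithelium, had the largest difference among the 50 tested probe sets, -1.47 (SE 0.94). It read 7.34 and 4.55 on fibronectin and 8.09 and 6.75 on uncoated dishes, so its groups overlapped, and without fibronectin replicate 2, which was at the floor, the difference was -0.08. The fibronectin mean of Trpv5, 5.95, was below the filter's cut.

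**Figure D5:**
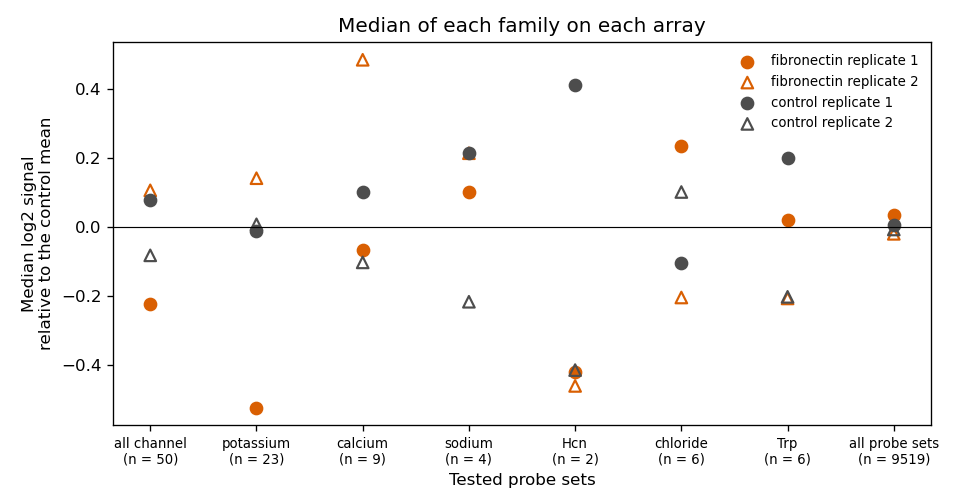
Median log2 signal of the tested probe sets of each family, relative to each probe set's control mean (vertical axis), on the 2 fibronectin arrays, in orange, and the 2 control arrays, in grey. Circles are replicate 1 and triangles replicate 2. For potassium channels the fibronectin arrays read -0.52 and 0.14, and for calcium channels -0.07 and 0.49.

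In the family medians, the fibronectin arrays overlapped with the controls for every family except Hcn. Over all 50 probe sets the median relative to the control mean was -0.22 on fibronectin replicate 1 and 0.11 on fibronectin replicate 2, against 0.08 and -0.08 on control replicates 1 and 2. Potassium channels had a median difference of -0.26 over 23 probe sets, with 17 negative and 6 positive, and read -0.52 and 0.14 on the fibronectin arrays, against -0.01 and 0.01 on the controls. Sodium channels read 0.10 and 0.22 on fibronectin and 0.22 and -0.22 on uncoated dishes. Chloride channels read 0.24 and -0.20 on fibronectin and -0.10 and 0.10 on uncoated dishes. The Hcn median, over 2 probe sets, read -0.42 and -0.46 on fibronectin, against 0.41 and -0.41 on uncoated dishes, with no overlap but with fibronectin close to control replicate 2. The median SD between replicates was 0.61 for the fibronectin arrays and 0.27 for the controls (n = 2 each, over 50 probe sets).

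Of the 135 channel genes 34 had several probe sets, and 5 had several tested ones. In 4 of these 5 (Kcnj11, Cacnb2, Clcn3 and Kcng2) the tested probe sets differed in sign, and in Kcnj3 both were negative. The dim Kcnj3 probe set, 1369741_at, had a positive difference of 0.58. The groups of 13 tested channel probe sets were free of overlap after normalization, or 26%, against 38.2% of all tested probe sets. Of these 13, 6 were free of overlap in the same direction on the deposited scale. They were those of Clcn4, Kcnj15, Kcng2 (1374814_at), Clcn3 (1380547_at) and Kcnj11 (1369782_a_at and 1387698_at). No share over all probe sets was counted on the deposited scale, so these 6 are not read as firmer. Clcn4 and Kcnj15 passed the filter through their fibronectin values.

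Genes that work beside these channels were counted by their highest-signal probe set. Of 39 listed partners and regulators (anchoring proteins, kinases, calmodulins and accessory proteins outside the symbol rule) 22 were tested, with a median difference of -0.10. Both fibronectin arrays were higher for 3 (Ank3, Bin1 and Cav3) and lower for 3 (Fgf14, Nedd4 and Prkaca), shares to be read against 19.3% and 19% of all tested probe sets, and 0 passed limma's Benjamini-Hochberg threshold. Prkaca, the catalytic subunit of protein kinase A, which phosphorylates the L-type channel, measured 9.73 and 9.19 on fibronectin, against 10.61 and 10.27 on uncoated dishes, a difference of -0.97 (SE 0.32) with an unadjusted limma p of 0.0167 and a Benjamini-Hochberg adjusted p of 0.718. Nedd4, a ubiquitin ligase, read 12.21 and 11.69 on fibronectin, against 12.42 and 13.08 on uncoated dishes, a difference of -0.80 (SE 0.32) with an unadjusted limma p of 0.0381. These were the 2 of 22 partners at an unadjusted p under 0.05, where 6.47% of all tested probe sets were.

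Of 54 listed channels outside the symbol rule 23 were tested, with a median difference of 0.14, 4 higher and 2 lower without overlap (19.3% and 19% of all tested probe sets), and 0 past limma's Benjamini-Hochberg threshold. Clic5, an intracellular chloride channel protein, was the one with a difference of at least 1. It read 5.66 and 8.21 on fibronectin, against 5.10 and 5.60 on uncoated dishes, a difference of 1.58 (SE 0.93). Both its control values were below the filter's cut, and Clic5 passed through fibronectin replicate 2. Its difference is therefore no support for a change. Of 17 listed ion pumps and exchangers 10 were tested, with a median difference of 0.02, 0 higher and 2 lower without overlap, against the same background shares. The 2 were Slc8a1, the sodium-calcium exchanger, at -0.45 (SE 0.32), and Atp1b1, a sodium pump beta subunit, at -0.36 (SE 0.29).

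Many channel genes are better known from neurons, smooth muscle or other cells than from ventricular myocytes, so markers of those cells are given beside them. Neural and Schwann cell markers had 16 of 19 genes on the array and 6 above the filter, all 6 with positive differences, and a summed linear signal of 2546 and 3034 on fibronectin, against 1847 and 1835 on uncoated dishes. The 6 were Prph (1.65), Cnp (1.01), Th (0.89), Uchl1 (0.78), Pmp22 (0.56) and Tubb3 (0.33), with Prph, Cnp and Pmp22 higher without overlap. The control means of Prph, 5.33, and Th, 5.80, were below the filter's cut, so both passed through their fibronectin values. Their positive sign is therefore no support for a change. Beside all marker counts without overlap stand the shares over all tested probe sets, 19.3% higher and 19% lower. The other 10 were dim, among them Gap43, higher on both fibronectin arrays, Nefl and Snap25, lower on both, and Nefh, at the floor on all 4 arrays. Leukocyte markers summed to 1775 and 2223 on fibronectin, against 2629 and 3326 on uncoated dishes, over 12 of 13 genes, and 7 of the 8 tested were negative, with 4 lower without overlap. Fibroblast markers, 15 of 15 on the array and all tested, summed to 41678 and 57093 on fibronectin and 52859 and 71740 on uncoated dishes. These sums overlapped, but 10 of the 15 fibroblast markers had negative differences, with a median of -0.57, 6 were lower and 2 higher without overlap, and 5 had an unadjusted limma p under 0.05, where 6.47% of all tested probe sets did. The 5 included Dcn at -1.57 (SE 0.41) and Ogn at -1.56 (SE 0.33), matrix proteoglycans, and 0 passed limma's Benjamini-Hochberg threshold. Smooth muscle markers, 9 of 9 and with Kcnmb1 among them, summed to 7796 and 10346 on fibronectin and 6993 and 11996 on uncoated dishes. Endothelial markers, 8 of 10, summed to 962 and 675 on fibronectin and 850 and 758 on uncoated dishes. The neural and leukocyte sums were free of overlap between the groups. The neural sum weighs most on Pmp22 and Cnp, its highest-signal members, with Pmp22 at 10.32 and 10.18 on fibronectin and 9.45 and 9.95 on uncoated dishes. Th, Uchl1 and Tubb3 had overlapping groups, so the sum does not stand for all neural markers. The part of any of these cell types, fibroblasts included, in the channel values was not tested.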

How the data were processed

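Total RNA from neonatal rat ventricular myocytes was measured on 4 Affymetrix arrays, fibronectin replicates 1 and 2 and control replicates 1 and 2. The deposited values are signal intensity per probe set with a linear scale. The authors' software and scaling target are not given in the sources used here. On each array 100% of the values below 200 steps lay within 0.05 of a whole multiple of the step. The table's 15875 rows held 9 Affymetrix control probe sets, which were left out. Intensities were quantile normalized, raised to a floor (23.4, the 20th percentile over the arrays) and log2 transformed, and the 40% of probe sets with the lowest mean (6347) were left out as dim. Fibronectin and control were compared in limma 3.58.1 under R 4.3.3 (lmFit, then eBayes with an intensity trend) on all 9519 remaining probe sets, two-sided, with Benjamini-Hochberg adjustment over all of them. The test was checked on simulated data. With 2 arrays against 2 the smallest two-sided exact permutation p is 0.333. For arrays, their number limits the precision.

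Genes were named by the platform annotation, and all 188 channel probe sets matched a gene in the GRCr8 table with 0 symbols changed. All tested channel probe sets were named. Values on every array were given for the highest-signal one of each family, for those at least 1 apart without overlap, for those at an unadjusted p under 0.05, for genes whose probe sets differ in sign, and for a list of cardiac channel genes; some others are given to show their order. Folds that involve a group at the floor are lower bounds, the mean of the brighter group over the floor. The members, lists and tests were chosen with earlier results of these data known. The alternatives tried were values without normalization or with only a median shift, a filter of 60% or none, no floor (values below 1 set to 1), an offset of 50, no intensity trend, an adjusted p threshold of 0.10, a block for replicate number, 1 probe set per gene, and leaving out each array in turn.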

Additional observations from a re-analysis of the deposited data

How the results depend on the processing

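No channel probe set passed limma's Benjamini-Hochberg threshold of 0.05 under any alternative, nor a threshold of 0.10 in the fit as reported. Not every alternative was free of channel probe sets under 0.10. Over all probe sets, where 0 passed, 337 did without fibronectin replicate 1, 5 without control replicate 1, 3 without fibronectin replicate 2 and 234 with the replicate number as a block. The sign of the difference held in all alternatives for 20 of the 50, and it turned when 1 array was left out for the others. The counts of large differences that follow have no share over all probe sets beside them, so they describe the channels only. The number at least 1 lower without overlap, 2 as reported, was 0 on the deposited scale, 0 with the 60% filter, 0 with an offset of 50 and 7 without a filter, and the number at least 1 higher, 0 as reported, was 4 without a filter. With 1 array left out these numbers ran from 2 to 7 and from 2 to 6, which an arm of 1 array makes easier to reach; that lone array is taken to vary like the other group's. The median difference of all tested channel probe sets was 0.00 without a filter and ran from -0.22 to 0.11 with 1 array left out, lowest without fibronectin replicate 2 and highest without fibronectin replicate 1. For potassium channels it was 0.063 without a filter and ran from -0.52 to 0.14. For calcium channels it ran from -0.16 to 0.49, for chloride channels from -0.20 to 0.24 and for Trp channels from -0.34 to 0.055. For chloride channels it was 0.00 without a filter, -0.18 with the 60% filter and 0.019 with 1 probe set per gene. The causes were not tested. In the no-filter fit values at the floor count as equal. With the replicate number as a block the median difference stayed at -0.06 and 0 channel probe sets passed. The labels do not say what a number shares, and deviations of same-numbered arrays correlated with r = 0.27 over all tested probe sets, so the numbers were not taken as pairs. Dim signal is a limit too, since 138 of 188 probe sets fell below the filter.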

Other observations

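Among the dim channel probe sets, which were not tested, many stood apart by group. The ones described here were picked out after their values were seen. Others without overlap, such as Cacna1d (1370637_at, -1.49) and Kcnj12 (1.21), are not described further. No share over all dim probe sets was counted, so these examples are not read as a result about channels. A second probe set of Trpm7, 1369059_at, lay at the floor in both fibronectin samples and read 6.51 and 7.33 on uncoated dishes, at least 5.17-fold lower, while the tested one differed by -0.01. Kcnk5, a tandem-pore channel sensitive to alkaline pH, read 5.90 and 7.10 on fibronectin and was at the floor on both controls, at least 3.86-fold higher. Probe set 1379863_at of Kcnd2, a pore of the transient outward current, read 5.49 and 6.96 on fibronectin, against 5.18 and 4.76 on uncoated dishes, whereas its probe set 1387476_at read 5.55 and 4.55 on fibronectin and 5.76 and 6.01 on uncoated dishes. Of the 138 dim probe sets 23 were at the floor on all 4 arrays. A signal above 6.5 was read for 18 of them on fibronectin replicate 2, against 1 on fibronectin replicate 1, 4 on control replicate 1 and 7 on control replicate 2.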
